A study of Danio rerio with 12 samples.

Results

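The Hox genes of paralog groups 3 and 4 were examined in zebrafish embryos that lacked prdm1, had received morpholinos against pbx2 and pbx4, or both. They were taken by gene name from the deposited table as hoxa3a, hoxb3a, hoxc3a and hoxd3a of group 3, and hoxa4a, hoxb4a, hoxc4a and hoxd4a of group 4. Each name had 1 row, giving 8 genes of 31051, and all 8 passed the filter on low counts that left 18117 genes for testing. RNA of whole AB embryos at the stage of 10 somites was sequenced in 12 libraries, 4 groups of 3. Double embryos were prdm1-/- and carried the pbx2/4 morpholinos, pbx2/4 morphants were prdm1+/+ with the same morpholinos, prdm1 mutants were prdm1-/- with a control morpholino, and controls were prdm1+/+ with the control morpholino. A morpholino is a synthetic antisense oligomer used to keep a chosen RNA from being spliced or translated, and injection was at the 1-cell stage per the labels. RNA was taken from single embryos that were genotyped and then pooled, from 3 independent collections of eggs, so a value is an average over all tissues of several embryos. The mutant allele of prdm1 and the dose of the morpholinos are not analysed here.

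Hox genes encode homeodomain transcription factors that give segments along the head-to-tail axis their identity, and they lie in clusters whose gene order follows the order of their expression along that axis. Genes of groups 3 and 4 start in the middle and caudal hindbrain and continue into the spinal cord, and in vertebrates they are also transcribed in neural crest cells of the pharyngeal arches and in mesoderm. Pbx proteins bind DNA together with Hox proteins of the anterior groups, and Meis and Pknox proteins join these complexes. Many Hox genes of the hindbrain have enhancers on which Hox and Pbx proteins act together, and the bZIP factor of mafba, the zinc-finger factor of egr2b and retinoic acid are other known inputs. prdm1a encodes a zinc-finger repressor known in the zebrafish for its part in slow muscle, neural crest and sensory neuron fates.

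Total estimated counts ran from 9059663 to 17236848 per library. Column names had 3 forms, and the libraries sharing a form make up set A, set B or set C, each with 1 library of every group. Sets B and C carry the same sample numbers in their column names, and the labels do not say why. Libraries of the same set deviated together from their group means across genes (correlation 0.45 to 0.67 over 18 pairs). Those of different sets had -0.48 to -0.03 over 36 pairs. Values below 0 there follow from the first, since deviations from a group mean sum to 0. Levels are therefore shown by set, and the values of a second fit with the set as a block are given where they change a call. Levels are given in CPM, counts scaled to a common library size. They are not corrected for gene length, so they compare groups for a gene and do not rank the genes. In the RefSeq annotation of the GRCz12tu assembly, the span of each group 3 gene contains the group 4 gene of the same cluster in 4 of 4 clusters. The span of hoxa3a also overlaps hoxa5a and evx1, and that of hoxb3a overlaps hoxb5a and hoxb6a. The span of hoxc3a overlaps hoxc5a, hoxc6a, hoxc8a and hoxc9a. The assembly of the files is an earlier one, and no source used here says how reads were divided between such genes. Fractional counts were rare among the members, with 1 value of hoxa3a and none for the other 7 genes.

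**Figure D1:**
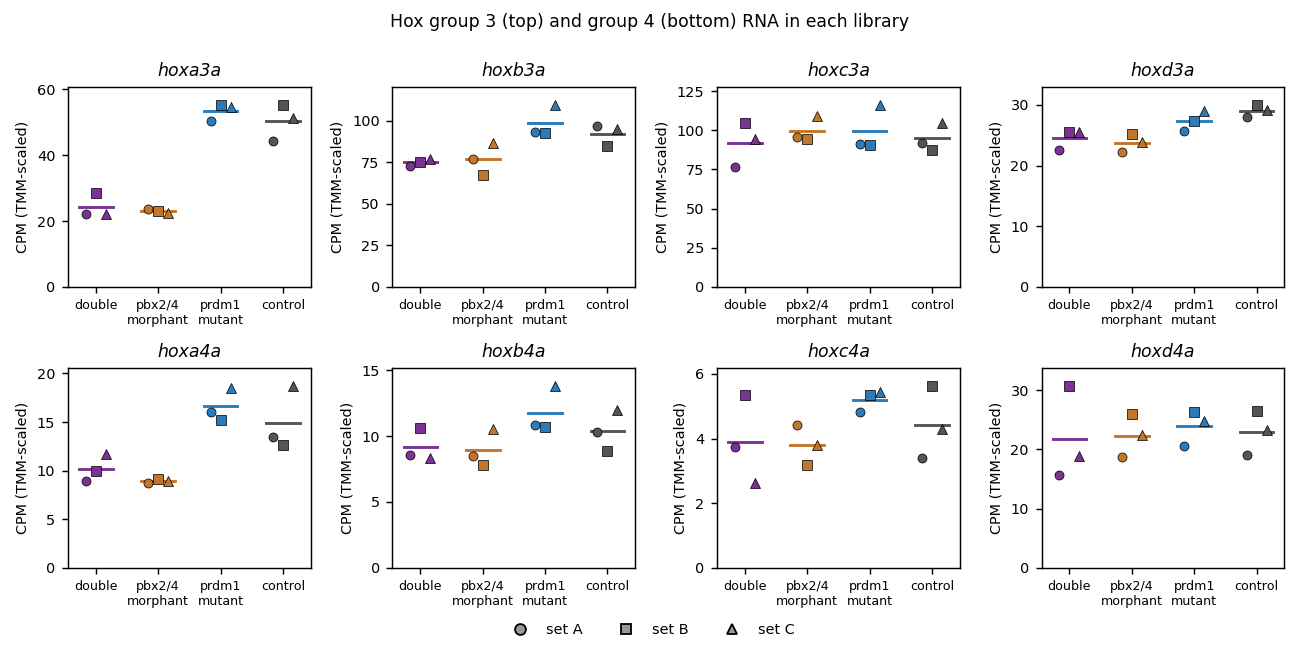
Normalised RNA level in CPM (vertical axis, starting at 0) of the 4 group 3 genes (top) and 4 group 4 genes (bottom) in each of the 12 libraries, with groups along the horizontal axis, marker shapes for sets A, B and C, and lines for the mean of 3 libraries. The 6 libraries with pbx2/4 morpholinos lay below the other 6 for hoxa3a, hoxd3a and hoxa4a, as for 3.71% of all genes. The level of hoxd4a was highest in set B in all 4 groups.

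The pbx2/4 morphants were compared with controls to ask what the pbx2/4 morpholinos did to these genes in embryos with normal prdm1. The RNA of hoxa3a fell to 45.9% of its control level, and that of the neighbouring hoxa4a had the next largest difference of the 8. The group 3 genes of the other clusters differed by much less. Of the 8 genes, 1 fell and 0 rose at an adjusted p under 0.05 in edgeR's quasi-likelihood test, in which 0.883% of all genes were called lower and 1.44% in either direction. The median log2 fold change of the 8 was -0.24, against 0.01 over all 18117 genes. With the set as a block, 4 of the 8 fell and 0 rose, at a background of 9.95% called lower.

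hoxa3a (ENSDARG00000036231) had 23.6, 23.2 and 22.5 CPM in the pbx2/4 morphants of sets A, B and C, against 44.3, 55.2 and 51.3 CPM in the controls. The groups did not overlap, as for 8.5% of all genes with the morphants lower, and the morphant libraries lay close together. Its log2 fold change was -1.12 (SE 0.13, 95% interval -1.41 to -0.84, edgeR adjusted p = 0.00209). Within the sets it was -0.91, -1.25 and -1.18 in A, B and C. By its unadjusted p, hoxa3a was number 14 of the 18117 genes tested.

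hoxa4a (ENSDARG00000057724) lies within the RefSeq span of hoxa3a, and how reads were divided between them is not known. It had 8.76, 9.13 and 8.97 CPM in morphants of sets A, B and C, against 13.5, 12.6 and 18.7 CPM in controls. All 3 morphant libraries were below all 3 control libraries, as were 8.5% of the genes tested, and the control of set C stood well above the other two. The log2 fold change was -0.75 (SE 0.18, 95% interval -1.13 to -0.36). It missed the threshold without the block (edgeR adjusted p = 0.0618) and passed it with the block (adjusted p = 0.000897). DESeq2 also called it (adjusted p = 0.0125). Without the control of set C the log2 fold change was -0.54, and with the block but without set C it was -0.55 and no longer passed (edgeR adjusted p = 0.0514).

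hoxb3a and hoxd3a showed small differences of similar size. hoxb3a (ENSDARG00000029263) had 77.2, 67.2 and 86.7 CPM in morphants, against 96.8, 84.9 and 95.2 CPM in controls. A morphant of set C lay above a control of set B, so the ranges overlapped, although within each set the morphant was the lower, as for 23.6% of all genes. Its log2 fold change was -0.26 (SE 0.12, edgeR adjusted p = 0.416, 0.0203 with the block). hoxd3a (ENSDARG00000059280) had 22.2, 25.3 and 23.9 CPM in morphants, against 28.0, 30.0 and 29.1 CPM in controls. Here the ranges were apart, as for 8.5% of all genes with the morphants lower. The log2 fold change of hoxd3a was -0.29 (SE 0.11, edgeR adjusted p = 0.317, 0.0177 with the block). With the block, the call of hoxd3a was lost whichever set was left out, and that of hoxb3a was lost without set A or set B. These fits had 8 libraries.

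hoxc3a (ENSDARG00000070339) had 99.8 ± 7.92 CPM in morphants and 94.8 ± 8.86 CPM in controls (SD, n = 3 each), a log2 fold change of 0.07 (95% interval -0.24 to 0.39, edgeR adjusted p = 0.924). The interval for hoxc3a and that for hoxa3a did not meet, although the difference between the genes was not tested. hoxa3a's interval also lay wholly below those of hoxb3a and hoxd3a, whose lower bounds were -0.52 and -0.53.

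Among the other group 4 genes, hoxb4a (ENSDARG00000013533) had 8.94 ± 1.41 CPM in morphants and 10.4 ± 1.56 CPM in controls, with a log2 fold change of -0.21 (95% interval -0.62 to 0.19). hoxd4a (ENSDARG00000059276) had 22.3 ± 3.65 CPM in morphants and 22.9 ± 3.75 CPM in controls, with -0.04 (95% interval -0.54 to 0.47). hoxc4a (ENSDARG00000070338) had 3.80 ± 0.624 CPM in morphants and 4.43 ± 1.12 CPM in controls, with -0.21 (95% interval -0.82 to 0.39). None of these 3 was called with or without the block. hoxc4a rested on 33 to 82 counts per library, where counting error alone gives a coefficient of variation of 14.0% in morphants and 14.1% in controls, while the observed values were 16.4% in morphants and 25.3% in controls. Its interval holds the values of hoxb3a and hoxd3a as well as 0. Within the sets, hoxb4a and hoxd4a were lower in morphants in all 3, as were 23.6% of all genes, and hoxc4a was higher in set A and lower in sets B and C.

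**Figure D2:**
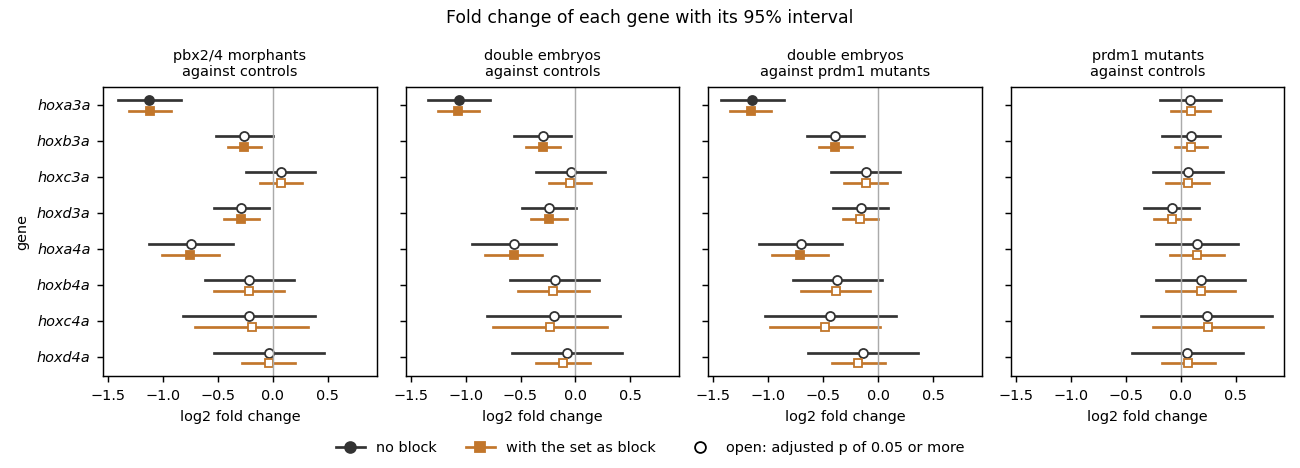
Log2 fold change (horizontal axis) of each of the 8 genes (vertical axis) in 4 comparisons, with 95% intervals, without a block (black circles) and with the set as a block (orange squares), where filled markers have an adjusted p under 0.05. hoxa3a is filled at -1.12, -1.06 and -1.15 in the 3 comparisons that differ by pbx2/4 morpholinos, and all 8 genes are open for prdm1 mutants against controls.

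Double embryos were set against the same controls, to ask what loss of prdm1 and the pbx2/4 morpholinos together did to these genes. Since both comparisons use the same 3 control libraries, their values are not independent. Without the block hoxa3a fell again, and hoxa4a stayed short of the threshold. hoxa3a had 22.0, 28.4 and 22.1 CPM in double embryos of sets A, B and C, against 44.3, 55.2 and 51.3 CPM in controls. Its log2 fold change was -1.06 (SE 0.13, 95% interval -1.34 to -0.77, edgeR adjusted p = 0.0016). Of the 8 genes, 1 fell and 0 rose (background 1.41% lower and 2.25% in either direction), and with the block 4 fell and 0 rose (background 10.8% lower).

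hoxa4a had 8.88, 9.96 and 11.7 CPM in double embryos, against 13.5, 12.6 and 18.7 CPM in controls, which did not overlap. The log2 fold change was -0.56 (SE 0.18, edgeR adjusted p = 0.149, 0.00494 with the block). hoxb3a had 73.0, 75.3 and 77.2 CPM in double embryos, all below the 84.9 to 96.8 CPM of controls, with -0.30 (SE 0.12, adjusted p = 0.287, 0.00937 with the block). hoxd3a had 22.6, 25.5 and 25.5 CPM in double embryos, all below the 28.0 to 30.0 CPM of controls, with -0.24 (SE 0.11, adjusted p = 0.376, 0.0351 with the block). Of all genes, 8.92% had the 3 double libraries below the 3 controls. With the block, hoxb3a and hoxa4a kept their call without set B and lost it without set A or set C, and that of hoxd3a was lost whichever set was left out.

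The other 4 genes had log2 fold changes of -0.20 to -0.04 in double embryos against controls. hoxd4a varied most, with 15.8, 30.7 and 18.9 CPM in double embryos of sets A, B and C, against 19.0, 26.5 and 23.2 CPM in controls. Its coefficient of variation was 36.1% in double embryos, where counting error alone gives 6.1%. In all 4 groups hoxd4a was highest in set B and lowest in set A, with 26.0 to 30.7 CPM over the libraries of set B and 15.8 to 24.8 CPM over the rest. hoxc3a had 76.5, 105 and 94.7 CPM in double embryos, against 92.2, 87.6 and 105 CPM in controls, which overlapped.

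A comparison that shares no library with the first set double embryos against prdm1 mutants, and asked what the pbx2/4 morpholinos did where prdm1 was missing. hoxa3a was again the 1 gene of the 8 that fell without the block. It had 22.0, 28.4 and 22.1 CPM in double embryos, against 50.3, 55.2 and 54.7 CPM in prdm1 mutants, a log2 fold change of -1.15 (SE 0.13, 95% interval -1.43 to -0.86, edgeR adjusted p = 0.00147). Within sets A, B and C it was -1.19, -0.95 and -1.30. Of the 8 genes, 1 fell and 0 rose (background 0.811% lower and 1.36% in either direction), with a median of -0.38 against 0.01 over all genes. With the block, 3 fell and 0 rose (background 8.98% lower).

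hoxa4a had 8.88, 9.96 and 11.7 CPM in double embryos, against 16.1, 15.3 and 18.5 CPM in prdm1 mutants. The groups did not overlap, as for 7.99% of all genes with the double embryos lower, and the log2 fold change was -0.71 (SE 0.18, edgeR adjusted p = 0.0766, 0.00112 with the block). DESeq2 called it here as well (adjusted p = 0.0181). hoxb3a had 73.0, 75.3 and 77.2 CPM in double embryos, against 93.3, 92.7 and 109.5 CPM in prdm1 mutants, which did not overlap either, with -0.39 (SE 0.12, adjusted p = 0.168, 0.0019 with the block). Both kept their call with the block when any 1 set was left out. hoxd3a had 22.6 to 25.5 CPM in double embryos and 25.6 to 29.1 CPM in prdm1 mutants, with -0.16 (SE 0.11, adjusted p = 0.701, 0.162 with the block).

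The 3 other group 4 genes were lower by their point estimates in double embryos than in prdm1 mutants, without passing the test. hoxb4a had 9.16 ± 1.24 CPM in double embryos and 11.8 ± 1.75 CPM in prdm1 mutants. The ranges just missed each other, as for 7.99% of all genes with the double embryos lower. The log2 fold change of hoxb4a was -0.37 (95% interval -0.78 to 0.03, edgeR adjusted p = 0.491, 0.092 with the block). hoxc4a had 3.91 ± 1.36 CPM in double embryos and 5.20 ± 0.332 CPM in prdm1 mutants, with -0.43 (95% interval -1.03 to 0.16). hoxd4a had 21.8 ± 7.87 CPM in double embryos and 23.9 ± 2.95 CPM in prdm1 mutants, with -0.14 (95% interval -0.64 to 0.36). With the block but without set B, 6 of the 8 genes were called lower, hoxc3a, hoxb4a and hoxd4a joining the other 3. This fit was chosen after seeing the data, and it called 2567 of the 18117 genes in either direction. With the block but without set A or set C, 3 of the 8 were called, at 950 and 1449 of all genes. Within set B, hoxc3a and hoxd4a differed by 0.21 and 0.22, against -0.25 and -0.39 in set A and -0.29 and -0.38 in set C.

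The 6 libraries with pbx2/4 morpholinos were then set against the 6 with the control morpholino, a view added after the data had been seen. hoxa3a had a lowest level of 22.0, a median of 22.8 and a highest level of 28.4 CPM with pbx2/4 morpholinos, against 44.3, 52.97 and 55.2 CPM with the control morpholino. hoxa4a had 8.76, 9.05 and 11.7 CPM as its lowest, median and highest level with pbx2/4 morpholinos, against 12.6, 15.7 and 18.7 CPM with the control morpholino. For hoxd3a the same values were 22.2, 24.6 and 25.5 CPM with pbx2/4 morpholinos, against 25.6, 28.5 and 30.0 CPM with the control morpholino. In these 3 genes the 6 libraries lay wholly below the other 6, as they did for 3.71% of all genes, and in hoxd3a the gap was narrow. In the same model of 12 libraries, the morpholino effect averaged over both genotypes was -1.13 for hoxa3a (edgeR adjusted p = 4.11e-05), -0.73 for hoxa4a (0.00431) and -0.33 for hoxb3a (0.038). These 3 of the 8 genes fell, at a background of 4.23% lower, and 0 rose. hoxd3a had -0.22 (adjusted p = 0.126, 0.0054 with the block) and hoxb4a -0.29 (0.228, 0.0411 with the block). For this averaged effect with the block, the background was 16.6% of all genes called lower and 32.1% in either direction. hoxc3a had -0.02 (95% interval -0.24 to 0.20), hoxc4a -0.32 (-0.75 to 0.10) and hoxd4a -0.09 (-0.44 to 0.27), none called with or without the block.

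The prdm1 mutants were compared with controls to ask what loss of prdm1 alone did. None of the 8 genes was called by edgeR with or without the block or by DESeq2, and none had an unadjusted p under 0.05 by any of these. The background was 0.193% of all genes called, or 1.1% with the block. The log2 fold changes ran from -0.08 for hoxd3a to 0.24 for hoxc4a, with a median of 0.09 against 0.00 over all genes. hoxa3a had 50.3, 55.2 and 54.7 CPM in mutants, against 44.3, 55.2 and 51.3 CPM in controls, which overlapped. Its log2 fold change was 0.09 (95% interval -0.19 to 0.37). For hoxb3a the interval was -0.17 to 0.35, for hoxc3a -0.25 to 0.38, for hoxd3a -0.33 to 0.16 and for hoxa4a -0.23 to 0.52. A fall of the size that hoxa3a had in morphants lies outside each of these intervals, and also outside those of hoxb4a, hoxc4a and hoxd4a, whose lower bounds were -0.22, -0.36 and -0.44. Falls of the size that hoxb3a and hoxd3a had in morphants, -0.26 and -0.29, lie within the intervals of hoxd3a, hoxc4a and hoxd4a. They lie outside those of the other genes.

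Loss of prdm1 was also examined in embryos with pbx2/4 morpholinos, by comparing double embryos with pbx2/4 morphants. Again 0 of the 8 genes were called by edgeR with or without the block or by DESeq2, with 0 at an unadjusted p under 0.05, and the background was 0.149% of all genes called, or 1.2% with the block. hoxa3a had 22.0, 28.4 and 22.1 CPM in double embryos, against 23.6, 23.2 and 22.5 CPM in morphants, a log2 fold change of 0.06 (95% interval -0.22 to 0.35). hoxa4a had 8.88, 9.96 and 11.7 CPM in double embryos, against 8.76, 9.13 and 8.97 CPM in morphants, with 0.19 (95% interval -0.20 to 0.57). The other 6 genes had values from -0.12 for hoxc3a to 0.04 for hoxd3a.

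Whether the effect of prdm1 loss differed with the morpholino was asked with the interaction contrast, the effect of prdm1 loss in embryos with pbx2/4 morpholinos minus that in embryos with the control morpholino. 0 of the 8 genes were called by edgeR or DESeq2, with 0 at an unadjusted p under 0.05. Of all 18117 genes 0 were called (background 0%), with 103 at an unadjusted p under 0.05 in edgeR and 70 in DESeq2. With the block 0 of the 8 and 0 of all genes were called too, with 0 and 523 at an unadjusted p under 0.05. These are fewer than a uniform spread of p-values would give, so a count of 0 does not show that an interaction is absent. The interaction of hoxa3a was -0.02 (95% interval -0.42 to 0.38) and that of hoxa4a 0.04 (95% interval -0.50 to 0.58). For hoxc4a it was -0.22 with a 95% interval of -1.07 to 0.63, the widest of the 8.

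Ratios of counts within a library do not depend on how libraries were scaled, and gene length cancels when the same ratio is compared between groups. The count of hoxa3a over that of hoxb3a was 0.322 ± 0.0488 in double embryos and 0.303 ± 0.0426 in pbx2/4 morphants, against 0.544 ± 0.0479 in prdm1 mutants and 0.549 ± 0.0964 in controls (SD, n = 3 each). The highest ratio with pbx2/4 morpholinos was 0.377 and the lowest with the control morpholino was 0.458. The groups with and without pbx2/4 morpholinos did not overlap in this ratio, and the difference between the genes was not tested. These groups were already apart in the level of hoxa3a alone. How often ratios of other genes separate them was not counted. hoxa4a over hoxb4a was 1.13 ± 0.24 in double embryos and 1.02 ± 0.16 in morphants, against 1.42 ± 0.0706 in prdm1 mutants and 1.43 ± 0.127 in controls. The double embryo of set C lay within the range of the libraries with control morpholino. hoxa3a over hoxa4a was 2.41 ± 0.484 in double embryos and 2.58 ± 0.096 in morphants, against 3.23 ± 0.344 in prdm1 mutants and 3.47 ± 0.83 in controls, with overlap between libraries with and without pbx2/4 morpholinos. The ratios of hoxb3a to hoxb4a overlapped between all 4 groups, with means of 8.30 in double embryos, 8.65 in morphants, 8.40 in prdm1 mutants and 8.99 in controls.

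**Figure D3:**
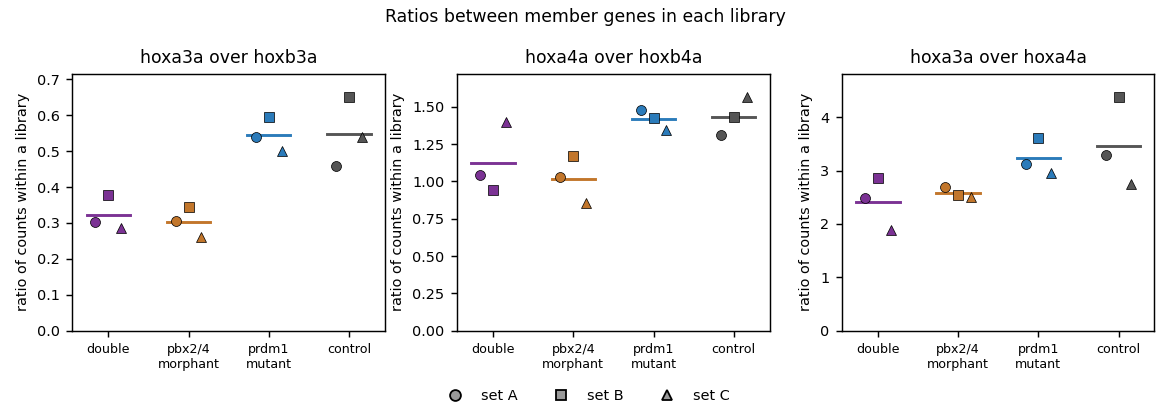
Ratio of the counts of 2 genes within each library (vertical axis, starting at 0) for hoxa3a over hoxb3a, hoxa4a over hoxb4a and hoxa3a over hoxa4a, by group, with marker shapes for the sets and lines for the mean of 3 libraries. For hoxa3a over hoxb3a the 6 libraries with pbx2/4 morpholinos end at 0.377 and the other 6 begin at 0.458, while the third ratio overlaps.

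The position of groups 3 and 4 within the clusters was examined by setting them beside the Hox genes on either side. Of 6 genes of groups 1 and 2 tested, 4 fell and 0 rose in pbx2/4 morphants against controls (background 0.883% lower and 1.44% in either direction). Their median log2 fold change was -1.12. Of 12 genes of groups 5 to 8, 0 were called by edgeR or DESeq2, and their median was 0.01. By each, 2 of the 12 had an unadjusted p under 0.05 (background 2178 of 18117 genes in edgeR and 2079 in DESeq2). With the block 2 of the 12 rose and 1 fell (background 7.73% higher and 9.95% lower). In the hoxa cluster the values in morphants were -2.00 for hoxa1a (SE 0.41, edgeR adjusted p = 0.0337), -1.12 for hoxa3a, -0.75 for hoxa4a and 0.01 for hoxa5a (SE 0.37). The value of hoxa1a rests on few counts, with 0.670 ± 0.278 CPM in morphants and 2.64 ± 0.832 CPM in controls, where 1 count was worth 0.0572 to 0.115 CPM. In the hoxb cluster hoxb1a had -0.95 (SE 0.24, adjusted p = 0.0764, 2.7e-05 with the block) and hoxb2a fell by 1.28 (SE 0.20, adjusted p = 0.0075), while hoxb3a had -0.26, hoxb4a -0.21 and hoxb5a -0.20 (SE 0.24). In the hoxc cluster hoxc1a fell by 1.01 (SE 0.19, adjusted p = 0.0185), hoxc3a had 0.07, hoxc4a -0.21 and hoxc5a 0.61 (SE 0.24, adjusted p = 0.319, 0.0157 with the block). In these 3 clusters the point estimates of groups 3 and 4 lay nearer to 0 than that of group 1. The fourth group 1 gene, hoxb1b, lies in another cluster and had -0.09 (SE 0.14, edgeR adjusted p = 0.894), nearer to 0 than 6 of the 8 genes of groups 3 and 4. Differences between genes were not tested. The spans of hoxa3a, hoxb3a and hoxc3a overlap hoxa5a, hoxb5a and hoxc5a in turn, and how reads were divided between them is not known.

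**Figure D4:**
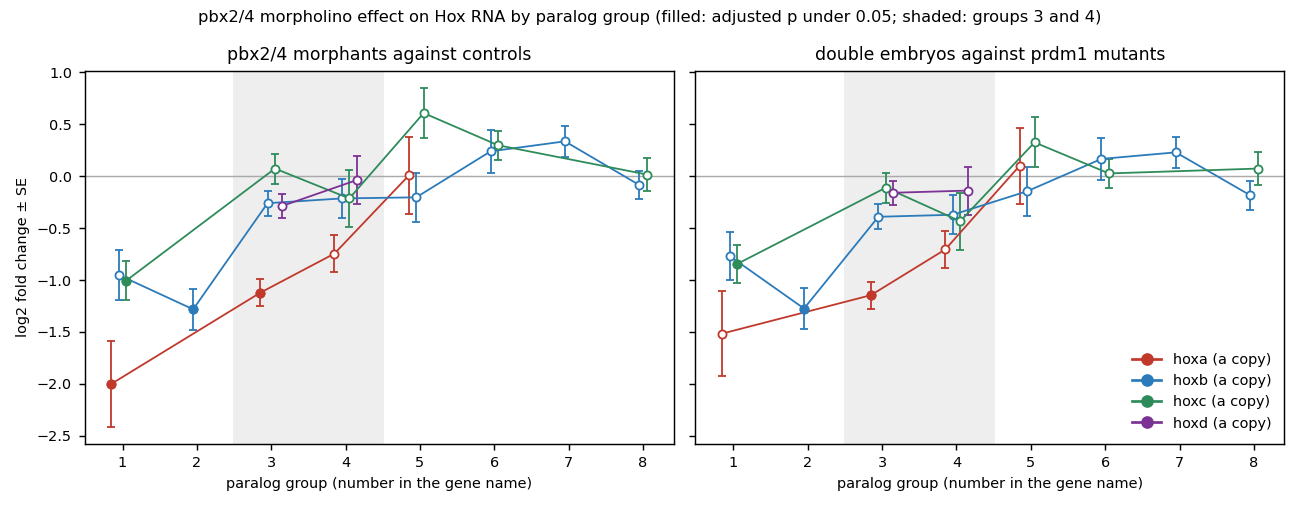
Log2 fold change with SE (vertical axis) of Hox genes against their paralog group (horizontal axis), joined by cluster, in pbx2/4 morphants against controls and in double embryos against prdm1 mutants, with groups 3 and 4 shaded and filled markers for an adjusted p under 0.05. In the first panel the hoxa line runs from -2.00 at hoxa1a through -1.12 at hoxa3a to 0.01 at hoxa5a, and hoxb, hoxc and hoxd lie between -0.29 and 0.07 within the shaded groups. The level of hoxa1a was low, with a mean of 0.670 CPM in morphants and 2.64 CPM in controls.

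Partners of Hox proteins and known inputs to these genes were tabulated in the same comparison. Of 14 rows for Pbx, Meis and Pknox genes tested, 1 rose and 1 fell (background 0.552% higher and 0.883% lower). With the block 6 rose and 2 fell, where 7.73% of all genes were called higher and 9.95% lower. pbx2, one of the targets of the morpholinos, rose to 260 ± 35.5 CPM in morphants, against 57.0 ± 12.7 CPM in controls, and pbx4, the other, had 438 ± 43.2 CPM in morphants and 330 ± 39.7 CPM in controls (edgeR adjusted p = 0.273, 0.000103 with the block). These RNA levels do not measure how much Pbx protein was lost. meis3, a Meis gene of the hindbrain, fell to 85.8 ± 4.67 CPM in morphants, against 146 ± 13.5 CPM in controls, a log2 fold change of -0.76 with an SE of 0.11 (edgeR adjusted p = 0.0043). Of 22 regulators tested, which cover hindbrain factors, Cdx factors and retinoic acid enzymes and receptors, 6 fell and 0 rose, and with the block 10 fell and 3 rose, against the same background. The 6 that fell without the block were egr2b at -5.34, cyp26b1 at -3.30, mafba at -2.46, gbx1 at -1.37, cyp26c1 at -1.34 and cdx1a at -1.30. Called lower only with the block were aldh1a2 at -0.82 (edgeR adjusted p = 8.05e-06), rxrgb at -0.51 (0.0499), mafbb at -0.42 (0.0169) and rarab at -0.34 (0.000726). Called higher only with the block were rxrbb at 0.57 (0.000586), rxrba at 0.25 (0.00775) and cyp26a1 at 0.24 (0.0489). mafba, known in the zebrafish for its part in the segments where group 3 genes begin, had 10.8 ± 3.82 CPM in morphants and 59.7 ± 6.02 CPM in controls. Their part in the change of hoxa3a was not tested.

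Markers of tissues that transcribe these genes were set beside them, since in whole embryos fewer cells of a type and less RNA per cell cannot be told apart. The 8 pan-neural markers summed to 784 to 823 CPM in morphants, against 990 to 1022 CPM in controls, which did not overlap. How often sums of other genes separate these groups was not counted. DESeq2 called 3 of the 8 markers (background 559 of 18117 genes). By edgeR 1 fell, neurog1 at -0.67 (SE 0.15, edgeR adjusted p = 0.0487), and with the block 5 fell (background 0.883% lower, 9.95% with the block). Those not called with the block were sox1a at -0.52, sox2 at -0.09 and sox1b at -0.03. The median log2 fold change of the 8 markers was -0.32, beside -0.24 for the 8 Hox genes and -1.12 for hoxa3a. Whether each marker reports neural tissue as a whole was not tested. The 5 neural crest markers tested summed to 304 to 321 CPM in morphants and 325 to 345 CPM in controls, with 0 called by edgeR or DESeq2 and 0 at an unadjusted p under 0.05. In double embryos these markers summed to 250.6 to 266 CPM and in prdm1 mutants to 266.3 to 309.8 CPM, against 325 to 345 CPM in controls. In double embryos against controls 0 were called by edgeR, with 3 at an unadjusted p under 0.05 (background 2459 of 18117 genes). DESeq2 called 2 of them (background 740 of 18117 genes). With the block 3 were called, namely sox9b, sox10 and tfap2a, all lower (background 10.8% lower). In prdm1 mutants against controls 0 were called by edgeR or DESeq2. By each, 2 had an unadjusted p under 0.05 (background 480 of 18117 genes in edgeR and 419 in DESeq2). With the block 2 were lower there (background 0.607% lower). In double embryos against prdm1 mutants 0 were called by edgeR, by DESeq2 or with the block. The pan-neural sum was 764 to 836 CPM in double embryos, against 990 to 1022 CPM in controls. Of the 8 markers 0 were called by edgeR, with 7 at an unadjusted p under 0.05 (background 2459 of 18117 genes). DESeq2 called 3 of the 8 (background 740 of 18117 genes). With the block 6 were lower (background 1.41% lower, 10.8% with the block). Against prdm1 mutants 0 pan-neural markers were called by edgeR in double embryos, with 5 at an unadjusted p under 0.05 (background 2094 of 18117 genes). DESeq2 called 3 of the 8 there (background 571 of 18117 genes), and with the block 6 were lower (background 8.98% lower). In morphants the 6 paraxial mesoderm markers summed to 477 to 561 CPM in morphants and 490 to 571 CPM in controls, and the 5 endoderm markers to 116 to 134 CPM in morphants and 129 to 152 CPM in controls. By edgeR 0 genes of either list were called, with 2 and 1 at an unadjusted p under 0.05 (background 2178 of 18117 genes). By DESeq2 0 were called, with 3 and 1 at an unadjusted p under 0.05 (background 2079). With the block 2 genes of each list were called (background 7.73% higher and 9.95% lower). They were ripply1 at 0.45 (edgeR adjusted p = 0.00183) and pax3a at -0.40 (0.00859) among the mesoderm markers. On the endoderm list they were foxa2 at -0.36 (0.00897) and sox9a at -0.24 (0.0411). The others on the endoderm list, foxa1 at -0.12, foxa3 at 0.00 and nkx2.3 at -0.06, were not called. Whether foxa2 and sox9a report endoderm alone in whole embryos was not tested. No list had a tested marker at 0 in all libraries of a group, but markers that failed the filter on low counts were not counted. Of 7 endoderm markers with a row 5 were tested, and sox17 and sox32 were not among them. Of 11 genes of the p53 response, 8 rose and 0 fell in morphants (background 0.552% higher and 0.883% lower), with a median of 1.68. The 11 genes summed to 3236 to 4190 CPM in morphants against 857 to 1695 CPM in controls. In double embryos against prdm1 mutants 10 of these 11 rose (background 0.552% higher). The part of these shifts in the levels of the Hox genes was not tested.

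The genes whose levels over the 12 libraries, centred within each set, were most like the summed group 3 genes were SACM1L (1 of 2), ACTR2 (3 of 3), DNAH11 (1 of 2), ctbp1 and wu:fc26g07, with Pearson correlations of 0.981, 0.979, 0.975, 0.966 and 0.965. For the summed group 4 genes they were usp48, itgav, SCMH1, IGSF9 (1 of 2) and dido1, at 0.988, 0.985, 0.972, 0.971 and 0.968. They were the highest of 12246 genes, whose correlations had a 99th percentile of 0.925 with the group 3 sum and 0.885 with the group 4 sum. All these values share the morpholino difference between the libraries and are a description. Between members, hoxa3a was most like hoxa4a at 0.95 and hoxb3a at 0.933, and least like hoxc3a at 0.157, while hoxc3a was most like hoxd4a at 0.871.

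The authors' deposited table of pbx2/4 morphants lists log fold changes from morphant to control, so a positive value means lower in morphants. It gives 1.13 for hoxa3a with an unadjusted p of 6.25e-08 and 0.81 for hoxa4a with an unadjusted p of 0.00279, in the count model that the authors ran. For hoxb3a and hoxd3a its unadjusted p-values are 0.173 and 0.160. The authors' deposited table of double embryos gives 1.09 for hoxa3a with an unadjusted p of 3.53e-07 and 0.59 for hoxa4a with 0.0242. Adjusted here by Benjamini-Hochberg over the 18619 genes listed, the authors' p-values for hoxa4a were 0.117 in morphants and 0.345 in double embryos. Those for hoxa3a were 1.82e-05 in morphants and 5.43e-05 in double embryos. In the authors' deposited table of prdm1 mutants the 8 genes have unadjusted p-values of 0.476 or more.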

How the data were processed

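RNA sequencing of 12 pools of zebrafish embryos was deposited as estimated counts per gene, which the authors made from reads aligned with TopHat 1.4 to Zv9, per the submitters' processing notes. The sources used here do not give the counting rule, the annotation or the use of strand. Of the deposited estimated counts, 13.7% were not whole (tolerance 1e-06) and were rounded. The authors' deposited tables of comparisons give log fold changes, read as log2, and unadjusted p-values from edgeR, per the submitters' processing notes.

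Counts were tested with edgeR 4.0.16 in R 4.3.3: TMM scaling, the default filter on low counts by group, a quasi-likelihood F test with a group mean for each of the 4 groups over all 12 libraries, and Benjamini-Hochberg adjustment over 18117 genes at 0.05. Intervals are at 95%. The fit without the block was tested on simulated data for the contrast of morphants with controls, with independent libraries of a smaller spread than these. The fit with the block, DESeq2 and the averaged effect were not tested in this way. 1 count was worth 0.0572 to 0.115 CPM. Column names gave the group but no replicate number. The set was used as a replicate block in a second fit because same-set deviations correlated in every pair; what a set is, the labels do not say. Alternatives were DESeq2 1.42.0, other scalings and filters, unrounded counts, the compared groups alone and leaving out each library. All 8 genes were named, and neighbours in likeness were the 5 genes with the highest correlation among those averaging 5 CPM or more. The members and gene lists were chosen with earlier results of these data known. Sequences and gene lengths were not used here.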

Additional observations from a re-analysis of the deposited data

Results flagged for a closer look

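For hoxd3a the point estimates of prdm1 loss had opposite signs with and without pbx2/4 morpholinos. Neither difference passed the test (edgeR unadjusted p = 0.714 with and 0.473 without pbx2/4 morpholinos). Double embryos lay above pbx2/4 morphants in each of the 3 sets, by 0.01 to 0.09 on the log2 scale, as for 15.3% of all genes. The prdm1 mutants lay below controls in each set, at -0.13 to -0.00, as for 17% of all genes. The interaction was 0.13 (SE 0.16, 95% interval -0.22 to 0.47, edgeR adjusted p = 1), so it did not pass the test.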

How the results depend on the processing

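The call of hoxa3a held under every alternative run, in all 3 comparisons that differ by pbx2/4 morpholinos, with a highest adjusted p of 0.0205. Other scalings, other filters and unrounded counts changed no member's call. DESeq2 called 2 members in pbx2/4 morphants against controls and 2 in double embryos against prdm1 mutants, hoxa3a and hoxa4a each time. With the replicate block 4, 4 and 3 members were called in morphants against controls, double embryos against controls and double embryos against prdm1 mutants, and no other member's call changed. The effect averaged over genotypes called 3 members and 1301 genes. Over all genes in morphants against controls, DESeq2 called 559, the replicate block 3203 and the 2 groups alone 120. In double embryos against controls these were 740, 3655 and 205, against prdm1 mutants 571, 2935 and 95, in prdm1 mutants against controls 65, 199 and 18, and in double embryos against morphants 65, 218 and 15. Leaving out 1 library gave 78 to 254 genes for morphants against controls, 163 to 404 for double embryos against controls, 72 to 224 for double embryos against prdm1 mutants, 14 to 39 for prdm1 mutants against controls and 17 to 30 for double embryos against morphants. The block without 1 set, chosen after seeing the data, gave 1423 to 2564, 1426 to 3369, 950 to 2567, 59 to 200 and 73 to 217 genes in the same order, with 1 to 2, 1 to 3 and 1 to 6 members over all leave-one-out fits of the first 3. The causes were not tested.

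The members' values that changed sign were called neither in the first fit nor in the fit where the sign changed, although hoxc3a and hoxd4a in double embryos against prdm1 mutants were called lower with the block without set B. hoxc4a in double embryos against morphants was -0.039 with the replicate block, and hoxc3a was -0.019 for the averaged effect. When libraries or sets were left out, the log2 values in morphants against controls ran from -0.45 to 0.060 for hoxc4a and -0.16 to 0.076 for hoxd4a. In double embryos against controls they ran from -0.20 to 0.073 for hoxc3a, -0.48 to 0.032 for hoxc4a and -0.40 to 0.11 for hoxd4a. In double embryos against prdm1 mutants they ran from -0.27 to 0.016 for hoxc3a and -0.46 to 0.045 for hoxd4a, and in prdm1 mutants against controls from -0.061 to 0.15 for hoxc3a and -0.055 to 0.18 for hoxd4a. In double embryos against morphants they ran from -0.064 to 0.13 for hoxa3a, -0.13 to 0.058 for hoxb3a, -0.26 to 0.00010 for hoxc3a, -0.0051 to 0.099 for hoxd3a, -0.18 to 0.22 for hoxb4a, -0.39 to 0.24 for hoxc4a and -0.36 to 0.15 for hoxd4a. The interaction ran from -0.19 to 0.076 for hoxa3a, -0.22 to 0.0025 for hoxb3a, -0.19 to 0.16 for hoxa4a, -0.33 to 0.050 for hoxb4a, -0.78 to 0.024 for hoxc4a and -0.42 to 0.083 for hoxd4a. hoxc4a had the fewest counts, 33 to 82 per library.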
